A study of Mus musculus with 4 samples.

Results

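The genes described here encode the proteins of the cytoplasmic ribosome, measured in primary dermal fibroblasts of newborn mice that lack ADAM9, a membrane-anchored metalloprotease, and of wild-type mice. Members were all genes with the symbol Rpl or Rps and a number (suffixes a, l and x allowed), together with Rplp0, Rplp1, Rplp2 and Rpsa, that had a probe set naming no other gene. Kinases of the Rps6k group and pseudogene names were left out. This gave 46 of the 18193 named genes, 24 of the large and 22 of the small subunit, with 100 of the 45101 probe sets. The RefSeq gene table of assembly GRCm38.p6 holds 84 symbols of this form, and a further 25 of them were named by the array only together with other genes, mostly pseudogenes.

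The knockout cells (adam9 -/-, n = 2 isolations) and the wild-type cells (adam9 +/+, n = 2) came from skin at postnatal day 1 and were grown for 48 h without treatment, and each isolation was put on 1 array. The comparison asked which genes differ constitutively without ADAM9. The labels give neither the strain nor the number of animals behind an isolation, so the p-values measure only the spread between isolations. Values are log2 summaries per probe set, and a difference is knockout minus wild type on that scale.

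The cytoplasmic ribosome is built from a small subunit, which reads the mRNA, and a large subunit, which joins the amino acids. Most core proteins are present in equal number, and cells keep the supply of these proteins in step with growth. Many mRNAs of ribosomal proteins begin with a C and a run of pyrimidines, the terminal oligopyrimidine (TOP) tract, through which the kinase mTORC1 and the RNA-binding protein LARP1 control their translation and stability. An array measures the amount of mRNA and not its translation.

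The region around the transcription start is shown for the first 3 members with the largest differences that have an entry in the RefSeq promoter table (Rps25, Rpl39l and Rpl14), and for Rps27 and its paralogue Rps27l, which have pyrimidine runs close to the start. Each line holds 15 bases before and 15 bases from the annotated start, 5′ to 3′, in build GRCm38.p6. Capitals mark the C nearest to the start, within 10 bases of it, that is followed by at least 4 pyrimidines, together with the pyrimidines after it. Pyrimidines before that C stay in lower case. Rps25 lies at chr9:44407699-44407728 (+), Rpl39l at chr16:10170213-10170242 (+), Rpl14 at chr9:120571502-120571531 (+), Rps27 at chr3:90213634-90213663 (-) and Rps27l at chr9:66946071-66946100 (+).
Rps25: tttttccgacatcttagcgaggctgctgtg
Rpl39l: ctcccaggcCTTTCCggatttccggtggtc
Rpl14: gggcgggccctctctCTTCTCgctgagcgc
Rps27: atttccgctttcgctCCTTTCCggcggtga
Rps27l: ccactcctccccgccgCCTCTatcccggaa

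Such a C stood exactly at the annotated start in 8 of the 40 members with an entry (20%) and in 2.49% of the 27025 genes of the promoter table. Such a C lay within 10 bases of the start in 24 members (60%), against 30.8% of all genes. The ETS core CCGGAA, on either strand of the 300-base promoter, was present in 24 members (60%), against 15.2% of all. The SP box GGGCGG was present in 52.5% against 35.9%, the YY1 core CCATNTT in 27.5% against 16.3%, and TATAAA in 10.0% against 14.2%. On the opposite strand the ETS core reads TTCCGG and can overlap a run, as it does in Rpl39l. Members with such a C near the start had a median difference between the genotypes of 0.11 (n = 23) and members without one a median of 0.10 (n = 15). These matches describe the sequence only.

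Ribosomal protein mRNAs stood slightly higher in the knockout, and none passed the gene test. All 44 members tested had a positive difference, against 50.5% of the 13271 genes tested and 50.2% of the 2871 brightest, those above the 90th percentile of mean value. The brightest genes began at a mean of 9.29, while 32 of the 44 members lay above 13, so these genes do not match the members in level. The positive sign held for 42 of 44 when the values were quantile-normalized again and for 41 of 44 with cyclic loess. The members' median difference was then 0.075 and 0.097, respectively. Without knockout isolation 2 it held for 38 of 44, where 53.4% of all genes were positive. In the values as deposited the median difference was 0.11, or 1.08-fold, and the members ranged from 0.0057 to 0.44. The median over all genes tested was 0.0027. With limma, 0 of 44 members had an adjusted p under 0.05, against 0.0678% of all genes, and with a trended, robust variance the count was likewise 0 of 44 (0.0678% of all genes). At an unadjusted p under 0.05, 1 member was higher, against 6.18% of all genes, and 0 were lower. In either direction, 11.4% of all genes passed that threshold.

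The differences were small and had one direction. Both knockout arrays stood above both wild-type arrays for 33 of 44 members, against 23% of all genes and 23.4% of the brightest. For 0 members both stood below, against 22% of all genes. The difference exceeded both gaps between isolations of the same genotype for 26 of 44 members (59.1%), against 30.8% of all genes. The median standard error of a member in the limma fit was 0.12, while the median spread between isolations was 0.044 (SD). The moderated fit draws each gene's variance towards that of all genes, where the median spread was 0.16.

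**Figure D1:**
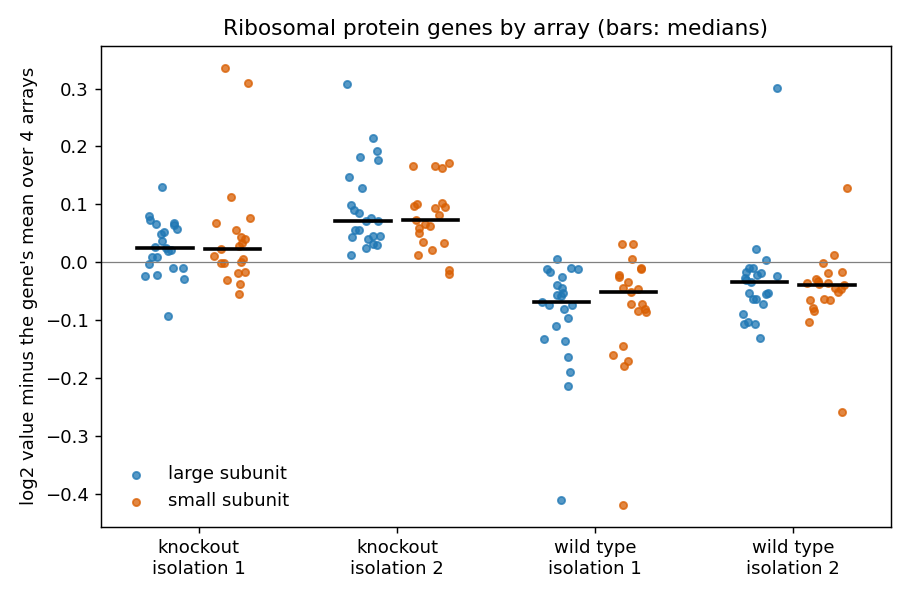
Deviation of each of the 44 tested ribosomal protein genes from its own mean over the 4 arrays (log2, vertical axis) in each array, with large subunit genes in blue, small subunit genes in orange and medians as bars. Both knockout medians lie above 0 and both wild-type medians below it, with knockout isolation 2 highest.

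The 4 arrays were not equally far apart. The members' median was 13.36 in knockout isolation 1, 13.38 in knockout isolation 2, 13.29 in wild-type isolation 1 and 13.30 in wild-type isolation 2. The median of the members' differences was 0.078 between the arrays of isolation 1 and 0.13 between those of isolation 2, with 38 and 41 of 44 positive. Both were positive for 35 of 44 members, against 31.4% of all genes. In the cross pairs it was 0.068 for knockout isolation 1 against wild-type isolation 2, with 39 positive, and 0.13 for knockout isolation 2 against wild-type isolation 1, with 43 positive. Within a genotype it was 0.061 for knockout isolation 2 minus 1, with 34 positive, and 0.016 for wild-type isolation 2 minus 1, with 28 positive. The gap between the knockout isolations was thus nearly as large as the smallest gap between the genotypes. Knockout isolation 2 was the highest array for 32 members, and wild-type isolation 1 was the lowest for 28.

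**Figure D2:**
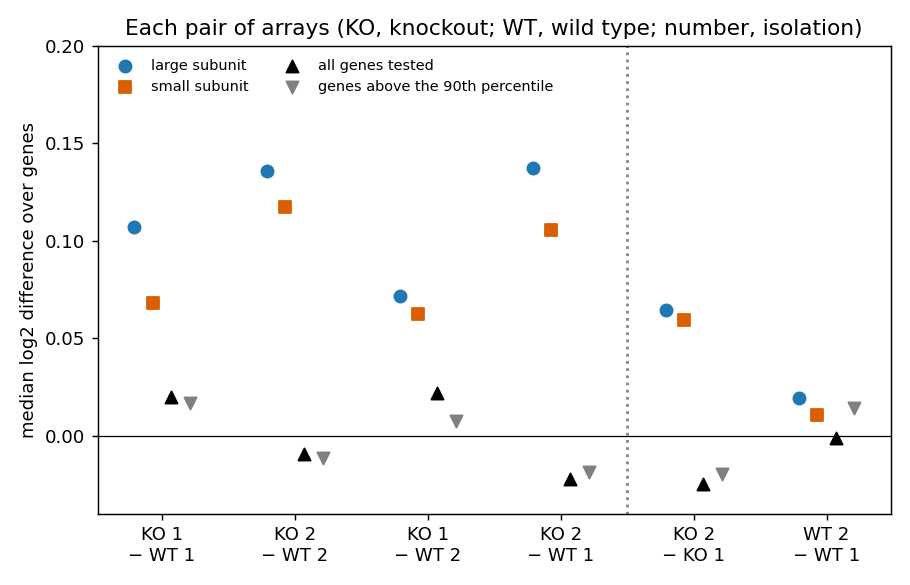
Median log2 difference over genes (vertical axis) for each of the 6 pairs of arrays, for large subunit members (circles), small subunit members (squares), all 13271 genes tested (upward triangles) and the 2871 brightest (downward triangles). The 4 pairs left of the dotted line compare the genotypes, with members between 0.06 and 0.14 and all genes between -0.022 and 0.022, and the 2 pairs on the right compare isolations of the same genotype.

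Large and small subunit genes showed differences of similar size. The 23 large subunit members tested had a median difference of 0.12, and 19 of them stood higher in both knockout arrays. The 21 small subunit members had a median of 0.090, and 14 stood higher in both. Over all genes tested, 23% stood higher in both knockout arrays. In isolation 1 the medians were 0.11 for the large and 0.068 for the small subunit, and in isolation 2 they were 0.14 and 0.12. The balance of an array, its large subunit median minus its small subunit median, was -0.21 and -0.18 in knockout isolations 1 and 2, and -0.12 and -0.20 in wild-type isolations 1 and 2. Its mean was -0.20 ± 0.020 (SD, n = 2) in the knockout and -0.16 ± 0.059 (SD, n = 2) in wild-type cells, and the genotypes overlapped. The difference in balance was -0.035 (exact permutation test over arrays, two-sided, p = 0.667, where 0.333 is the smallest possible p). Its sign is opposite to that of the median differences, of which the large subunit's is higher by 0.025, and it turned to 0.0064 when wild-type isolation 1 was left out. When a gene's probe sets were averaged, the difference in balance was -0.34.

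Among large subunit genes, Rpl8, whose protein lies near the peptidyl transferase centre, had the largest difference. Rpl8 (Entrez 26961) stood at 13.10 and 13.20 in the knockout isolations and at 12.83 and 12.95 in the wild-type isolations. The genotypes did not overlap, and the difference was 0.26 (SE 0.13, limma adjusted p = 0.523). Rpl14, whose protein sits in the large subunit, stood at 7.87 and 7.98 in knockout cells and at 7.59 and 7.79 in wild-type cells. Its difference was 0.24 (SE 0.14, limma adjusted p = 0.574), without overlap, and 0.14 without wild-type isolation 1. The brightest probe set that names other genes as well read Rpl14 at 13.01 and 13.05 in knockout cells. In wild-type cells that probe set read 12.78 and 12.83, a difference of 0.22 without overlap. Rpl11, which binds MDM2 when ribosome assembly fails, stood at 13.27 and 13.26 in knockout cells and at 13.12 and 13.14 in wild-type cells. The isolations of Rpl11 differed by 0.016 and 0.019 within the genotypes, and the genotypes by 0.13 (SE 0.12, limma adjusted p = 0.714), or by 0.080 with repeated quantile normalization.

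The stalk of the large subunit, which recruits elongation factors, was represented by Rplp0 and Rplp2. Rplp0, its base, stood at 13.77 and 13.88 in knockout cells and at 13.73 and 13.75 in wild-type cells, a difference of 0.090 (SE 0.13) that came to 0.14 or 0.035 when knockout isolation 1 or 2, respectively, was left out. Rplp2 stood at 13.82 and 13.90 in knockout cells and at 13.81 and 13.88 in wild-type cells, so that its genotypes overlapped. The difference of Rplp2 was 0.016 (SE 0.12), and it was -0.028 when the values were quantile-normalized again.

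In the small subunit, Rpsa, which also serves as a laminin receptor at the cell surface, stood at 13.48 and 13.59 in knockout cells and at 13.28 and 13.35 in wild-type cells. The genotypes did not overlap, and the difference was 0.22 (SE 0.13, limma adjusted p = 0.558). Rps25, a protein used by viral internal ribosome entry sites, stood at 9.67 and 9.34 in knockout cells and at 8.94 and 9.49 in wild-type cells. Its genotypes overlapped: the difference of 0.29 (SE 0.25, limma adjusted p = 0.688) rested on wild-type isolation 1, without which it was 0.017, and it was 0.13 without knockout isolation 1, 0.46 without knockout isolation 2 and 0.56 without wild-type isolation 2. Rps6, the substrate of the S6 kinases, stood at 8.71 and 8.80 in knockout cells and at 8.78 and 8.71 in wild-type cells, a difference of 0.012 (SE 0.13) with overlap. On its brightest probe set that names other genes as well, Rps6 stood at 13.97 and 13.98 in knockout cells and at 13.86 and 13.87 in wild-type cells, a difference of 0.11 without overlap.

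**Figure D3:**
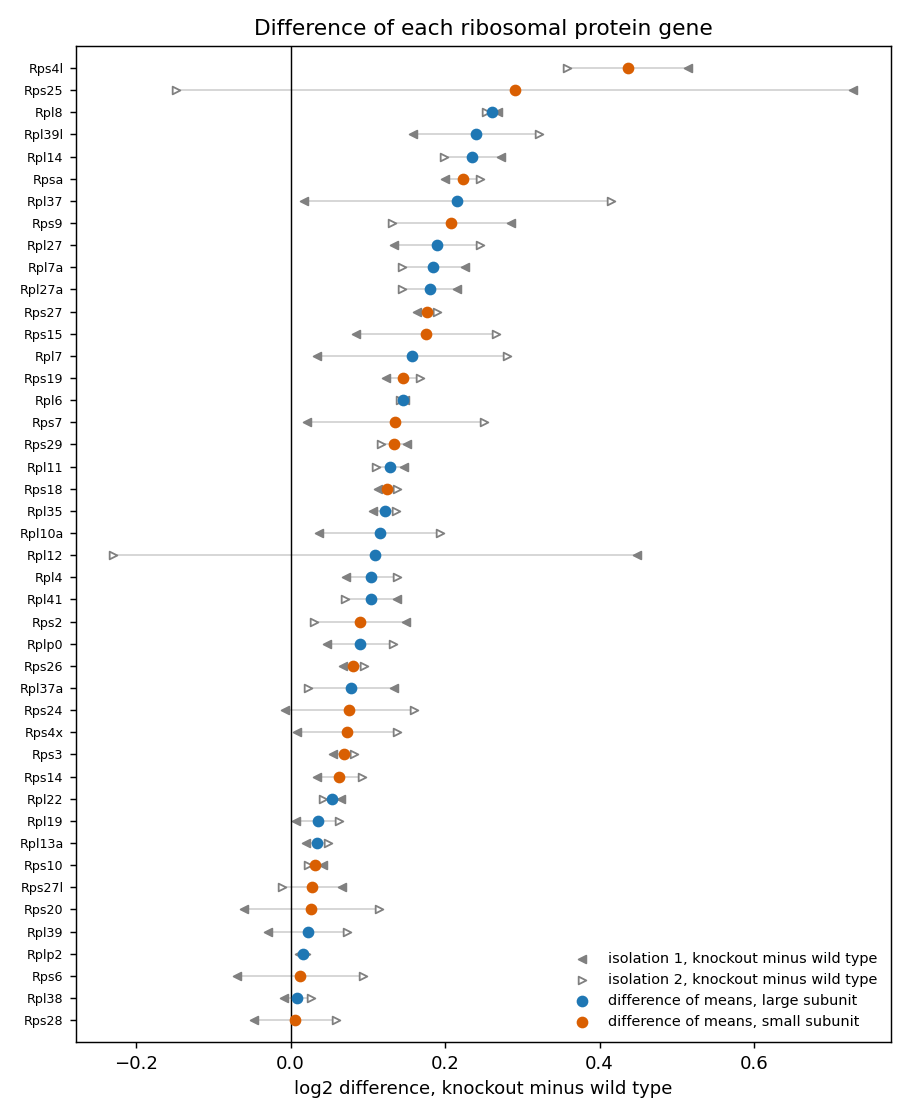
Log2 difference, knockout minus wild type (horizontal axis), of each of the 44 tested members, as the difference of genotype means (blue, large subunit; orange, small subunit) and within isolation 1 (filled triangles) and isolation 2 (open triangles). Every difference of means lies above 0, from 0.0057 for Rps28 to 0.44 for Rps4l, and 35 members are positive in both isolations.

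The paralogues, genes whose symbol ends in l, stand here beside their parent genes. Rps4l (Entrez 66184), named as a gene like Rps4x, had the largest difference of all members. It stood at 11.30 and 11.06 in knockout cells and at 10.78 and 10.70 in wild-type cells. The genotypes did not overlap, and the difference of 0.44, or 1.35-fold (SE 0.15), had an unadjusted p of 0.0363 and a limma adjusted p of 0.413. Its X-linked parent Rps4x stood at 13.55 and 13.63 in knockout cells and at 13.54 and 13.49 in wild-type cells, a difference of 0.073 (SE 0.12). Leaving out knockout isolation 1 or 2 gave 0.11 or 0.036, respectively, and leaving out wild-type isolation 2 gave 0.046. Repeated quantile normalization gave 0.033, and the second probe set of Rps4x gave 0.21. The difference between these 2 genes' responses was not tested.

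Rpl39l (Entrez 68172), a paralogue known mainly from testis, stood at 10.89 and 11.08 in knockout cells and at 10.73 and 10.75 in wild-type cells, a difference of 0.24 (SE 0.14, limma adjusted p = 0.558) without overlap. It was 0.15 without knockout isolation 2. Rps27l, known as a p53 target, stood at 12.70 and 12.65 in knockout cells and at 12.64 and 12.66 in wild-type cells. Its difference was 0.028 (SE 0.12), and its other probe sets gave -0.012 and -0.013. Its parent Rps27 stood at 7.58 and 7.75 in knockout cells and at 7.42 and 7.56 in wild-type cells, a difference of 0.18 (SE 0.14) without overlap. It was 0.093 without knockout isolation 2 and 0.11 without wild-type isolation 1. A probe set that names other genes as well read Rps27 at 12.98 and 13.13 in knockout cells. In wild-type cells that probe set read 12.85 and 12.79, a difference of 0.23 without overlap. Rpl3l, a paralogue of striated muscle, lay at 2.61 to 2.79 on all arrays, below the filter on dim probe sets. Rpl22l1, whose name falls outside the rule and which was chosen after its values were seen, stood at 12.68 and 12.68 in knockout cells and at 12.35 and 12.15 in wild-type cells. Its difference was 0.43 (SE 0.14, limma adjusted p = 0.394), while Rpl22, whose protein represses the Rpl22l1 mRNA, differed by 0.053.

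Some members read low on a probe set of their own and high on probe sets that name copies of the gene as well. Rps16 lay at 2.53 to 2.75 on its 1 probe set, below the filter, while a probe set that also names pseudogene copies read Rps16 at 13.78 and 13.87 in knockout cells and at 13.74 and 13.74 in wild-type cells. Rpl39, an X-linked gene, stood at 5.54 and 5.61 in knockout cells and at 5.57 and 5.54 in wild-type cells (difference 0.022, SE 0.12). Read with its copies, Rpl39 stood at 13.80 and 13.91 in knockout cells and at 13.89 and 13.86 in wild-type cells, a difference of -0.017. Rps25 with its copies stood at 12.99 and 13.08 in knockout cells and at 12.86 and 12.96 in wild-type cells, a difference of 0.13 without overlap. Rpl12, chosen after its values were seen, stood on its own probe set at 6.91 in wild-type isolation 1 and 7.63 in wild-type isolation 2, on either side of 7.36 and 7.40 in the knockout. With its copies Rpl12 stood at 13.18 and 13.22 in knockout cells and at 13.07 and 13.05 in wild-type cells. Near-identical copies can bind the same probes, which was not measured here, so none of these values can be given to 1 locus with certainty.

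Probe sets outside the rule showed the same direction. The 25 genes named only with other genes were each read on the brightest such probe set. Their differences were positive in 24 cases, against 50.5% of all genes tested. The median was 0.098 and the range -0.015 to 0.22. Of the 25, 20 stood higher in both knockout arrays, against 23% of all genes tested. Among them, Rpl3 of the large subunit stood at 13.61 and 13.45 in knockout cells and at 13.32 and 13.29 in wild-type cells. Rpl5, the partner of Rpl11 in the assembly checkpoint, stood at 13.60 and 13.66 in knockout cells and at 13.59 and 13.53 in wild-type cells. X-linked Rpl10 stood at 13.71 and 13.70 in knockout cells and at 13.67 and 13.64 in wild-type cells. On these brightest probe sets the genotypes did not overlap for Rpl3, Rpl5 or Rpl10. They overlapped on the other probe set of Rpl10, which had a mean of 13.61 and a difference of 0.0185. On the dimmer probe sets of Rpl3 and Rpl5 the genotypes overlapped as well.

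Of the 70 probe sets of the members with a mean above 10, 68 were positive, and of the 80 probe sets naming other genes too, 77 were. At a mean of 10 or lower and above the filter, 17 of 23 and 15 of 21 were positive. Of all 27022 probe sets above the filter, array controls left out, 48.7% were positive. In 15 of the 23 members with several probe sets, all probe sets were positive. Members with a mean above 13 had a median difference of 0.097 (n = 32) and the others one of 0.18 (n = 12). The highest value on any array was 14.37, and whether bright probe sets were compressed near this level was not tested.

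**Figure D4:**
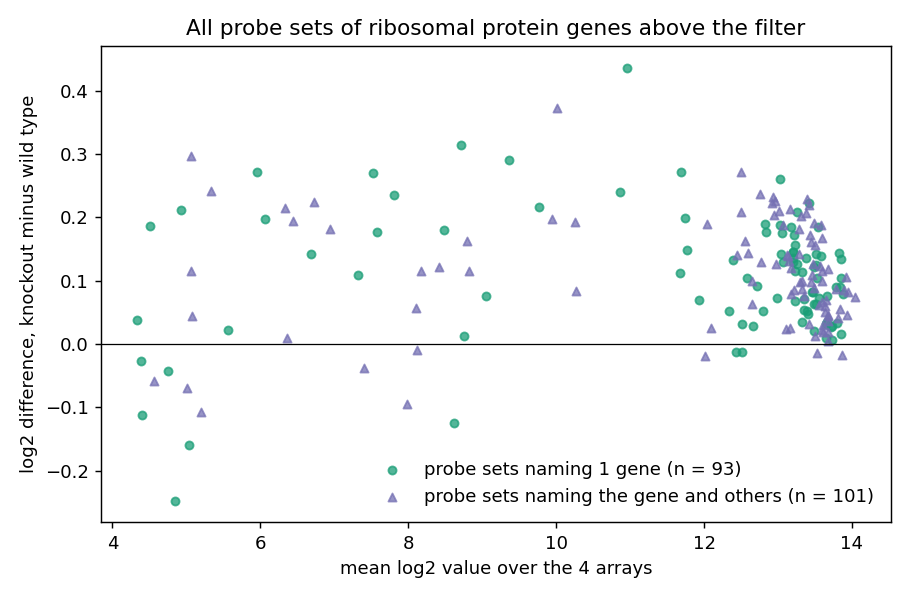
Log2 difference, knockout minus wild type (vertical axis), against the mean log2 value (horizontal axis) of the ribosomal protein probe sets above the filter, as circles for the 93 that name 1 gene and triangles for the 101 that also name others. Above a mean of 10, 68 of 70 and 77 of 80 are positive.

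Genes that make or serve the ribosome were taken from 8 lists, and 0 of their 195 genes passed the limma test (13 at an unadjusted p under 0.05 in either direction, a threshold that 11.4% of all genes passed). Translation factors and other genes whose mRNAs carry a TOP tract had positive differences for 13 of 13 genes, against 50.5% of all genes. Their median was 0.11, and 4 of the 13 stood higher in both knockout arrays, against 23% of all genes. The splicing factor Hnrnpa1 differed by 0.43 (SE 0.17), the histone chaperone Nap1l1 by 0.28 and the elongation factor subunit Eef1d by 0.21. Of 76 mitochondrial ribosomal protein genes, 62 were positive, with a median of 0.18, and 45 stood higher in both knockout arrays, where 23% of all genes did. Mrps28 differed by 0.50 (SE 0.14), Mrps16 by 0.45 and Mrpl40 by 0.43. The mitochondrial ribosome has its own set of proteins, so this list shares no gene with the members.

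Nucleolar ribosome biogenesis factors were positive in 38 of 41 genes, with a median of 0.30, and 9 stood higher in both knockout arrays, a share near the 23% of all genes. The list's medians overlapped, at 8.62 and 9.29 in knockout isolations 1 and 2 and at 8.37 and 8.80 in wild-type isolations 1 and 2. Fibrillarin, Fbl, which methylates ribosomal RNA, stood at 10.32 and 11.20 in knockout cells and at 9.85 and 10.28 in wild-type cells, a difference of 0.70 (SE 0.35). The small nucleolar ribonucleoprotein genes Nop56 and Gar1 differed by 0.70 and 0.67. In these 3 genes isolation 2 was the higher array in each genotype. RNA polymerase I and its factors were positive in 9 of 14 genes (median 0.17), with Tcof1 at 0.60, Polr1b at 0.42 and Znrd1 at 0.39. Chaperones and import factors of ribosomal proteins were positive in 10 of 13 (median 0.32), with the exportin Xpo1 at 0.64, Grwd1 at 0.44 and Bccip at 0.36.

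The mTORC1 and LARP1 list was positive in 7 of 17 genes, with a median of -0.046. The GTPase Rragc differed by -0.38, the cap-binding Eif4e by 0.38 and Tbc1d7 by -0.37. The Myc network was positive in 2 of 10 genes, with a median of -0.15, and held Mxd3 at 1.05 (SE 0.21, limma adjusted p = 0.271), Mycl at -0.78 and Mxd1 at -0.33. Ribosome-associated and stress factors were positive in 3 of 11 genes, with a median of -0.077, and the p53 inhibitor Mdm2 differed by -0.78, the ribotoxic stress kinase Map3k20 by -0.63 and Nemf by -0.26.

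**Figure D5:**
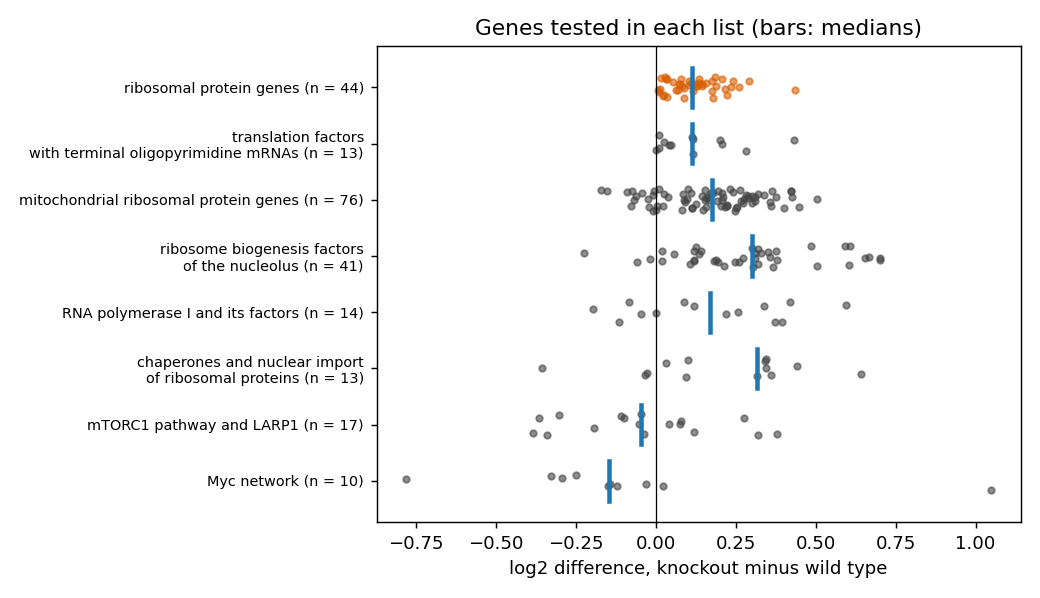
Log2 difference, knockout minus wild type (horizontal axis), of every tested gene of the ribosomal protein genes (orange) and of 7 other lists (grey), with medians as blue bars. The ribosomal protein genes lie between 0.0057 and 0.44, while the biogenesis factors spread from -0.22 to 0.70.

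Other features of the cultures differed between the genotypes or stood out in 1 array. Adam9 stood at 8.44 ± 0.16 (SD, n = 2) in knockout cells and at 11.64 ± 0.084 in wild-type cells. The sources used here do not say whether its probe set lies in the deleted part. Proliferation genes were higher in both knockout arrays in 15 of 15 cases, against 23% of all genes, with a median difference of 2.10. With limma, 0 of these 15 had an adjusted p under 0.05. The list's median was 8.43 and 9.42 in knockout isolations 1 and 2, and 6.89 and 6.59 in wild-type isolations 1 and 2. The ribosomal protein medians in the same order were 13.36, 13.38, 13.29 and 13.30. The genotypes also differed in Xist by 6.09 and in Y-linked Eif2s3y, Kdm5d and Uty by -6.54, -5.02 and -4.69. The part of proliferation and of sex-linked expression in the ribosomal protein result was not tested, and the arrays' sex-linked expression and genotype cannot be told apart. The macrophage and leukocyte markers had a median of 8.44 in wild-type isolation 1 and of 3.88 to 4.35 in the other arrays. Some of them, such as C1qa, C1qb and Mpeg1, passed the filter on mean value only through that array. The sign of the markers' differences is therefore not counted here. Without wild-type isolation 1 the ribosomal protein median was 0.10, with 42 of 44 members positive. Fibroblast markers had medians of 12.33 to 12.97, and several were lowest in wild-type isolation 2. Lum stood there at 10.13 and at 12.38 to 12.81 in the other arrays, and Pdgfra at 10.35 and at 11.93 to 12.31. Vim was highest there, at 13.81, against 13.59 to 13.79 in the other arrays. Fn1 stood at 12.90 and 13.16 in knockout cells and at 13.76 and 13.73 in wild-type cells. The difference of Fn1 was -0.71 without overlap (limma adjusted p = 0.283). When wild-type isolation 2 was left out, the ribosomal protein median was 0.12, with 42 of 44 members positive. The keratinocyte list had medians of 3.55 and 3.68 in the knockout and 4.84 in each wild-type isolation. In it Perp differed by -3.84 and Dsp by -2.49, both without overlap, while Krt5 lay between 4.84 and 4.85 on all arrays. Krt10 went the other way, at 7.17 and 7.02 in the knockout and 6.92 and 6.49 in wild-type cells. Krt10 differed by 0.39 without overlap. The part of these cells in the ribosomal protein result was not tested. The endothelial list had medians of 3.98 to 4.21. A higher value in bulk RNA cannot tell more cells of a type from more RNA per cell.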

How the data were processed

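Values came as 1 summary for each probe set on each array, made by the authors in Affymetrix Expression Console, per the submitters' processing notes. No version or summary method is given. The deposited values were taken as log2, since they ran from 1.70 to 14.37 with array medians of 4.83 to 4.87. Names from the platform annotation were updated by Entrez identifier (34754 of 34958 probe sets with 1 name). The probe set with the highest mean stood for a gene, and means above the 40th percentile (4.17) were tested, which left out Rps16 and Rpl3l.

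limma 3.58.1 (R 4.3.3; lmFit and eBayes, no block, 2 residual and 2.38 prior degrees of freedom) compared the genotypes, with Benjamini-Hochberg adjustment over 13271 genes. Members and lists were chosen with earlier results of these data known, so lists carry no test. Named members were the 6 largest differences in each direction (0 were negative), X-linked genes, paralogues with parents and genes of known role, plus up to 3 genes per other list by size. The planned search for genes of like pattern was left out, because 4 arrays do not carry a correlation. Promoters are from RefSeq, GRCm38.p6 (40 of 46 members matched). On 20 simulated data sets, 23.6% of genes changed by 1 log2 unit and 88.7% of those changed by 4 were called. Changes as small as the members' differences, 0.0057 to 0.44, were not simulated. Alternatives covered normalization, filters, probe sets, variance, membership and single arrays. The number of arrays limits the precision.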

Additional observations from a re-analysis of the deposited data

How the results depend on the processing

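No setting gave a called ribosomal protein gene, and the median difference was positive in all of them. The median was 0.075 with values quantile-normalized again, 0.097 with cyclic loess, 0.13 with median centring, 0.13 without _x_at and _s_at probe sets and, chosen after seeing the data, 0.097 for members with a mean above 13. With 1 array left out it ran from 0.089 to 0.13. Members higher in both knockout arrays numbered 24 of 44 with repeated quantile normalization. With genes named beside others added after seeing the data, they numbered 53 of 69. The share of 23% over all genes is from the values as deposited. The difference in subunit balance ran from -0.077 to 0.0064 with 1 array left out, and was 0.019 for members with a mean above 13. Its size thus depended on the members and probe sets taken.

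Single genes with differences near 0 changed sign. Rplp2 gave -0.028 with repeated quantile normalization and -0.0097 with cyclic loess, and ran from -0.020 to 0.052 with 1 array left out. Rps6 gave -0.0062 with the mean over probe sets and ran from -0.032 to 0.056 with 1 array left out. Rps27l gave -0.013 without _x_at and _s_at probe sets and -0.012 with the second probe set, and Rpl39 ran from -0.013 to 0.057 with 1 array left out. The causes were not tested. The isolation number as a replicate block left the median at 0.11 and 0 called members, with 35 positive within both numbers, and moved the calls over all genes from 9 to 2. The labels give isolations only a number, so pairing is not established. No detection calls were used, so low probe sets have no stated background.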
